A study of Mus musculus with 6 samples.

Results

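The genes described here encode the nuclear parts of the mitochondrial respiratory chain and the ATP synthase. They were chosen by name, as every gene of the count table whose symbol starts with Nduf, Uqcr, Cox4, Cox5, Cox6, Cox7, Cox8 or Atp5, which gave 88 of the 21240 genes counted. RNA came from NMuMG cells, an epithelial line of the mouse mammary gland, all kept for 6 h without serum and insulin before treatment. The 3 groups were vehicle for 2 h, TGFβ1 at 5 ng/ml for 2 h and TGFβ1 at 5 ng/ml for 12 h, with 2 biological replicates of each, so p-values rest on the spread between these 6 libraries of a single cell line. Vehicle was taken at 2 h only, and the effect of 12 h of TGFβ therefore cannot be told apart from that of a longer time without serum.

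Electrons from NADH enter the chain at complex I and pass through ubiquinone, complex III and cytochrome c to oxygen at complex IV, while protons are pumped across the inner mitochondrial membrane. ATP synthase uses the return of these protons to turn its rotor and make ATP. Most subunits are encoded in the nucleus and a few, including the catalytic core of complex IV, in mitochondrial DNA, whose genes were not analysed here. Nuclear subunit genes are known targets of the transcription factors NRF1, GABP and YY1 and of the coactivator PGC-1α, and TGFβ drives NMuMG cells from an epithelial toward a mesenchymal state.

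By the role of their products, the 88 genes comprised 7 core and 29 accessory subunits of complex I, 8 complex I assembly factors, 8 subunits of complex III, 20 of complex IV including tissue isoforms, 15 of ATP synthase, and Atp5s, the coupling factor B. Genes that reached 2 CPM, a count scaled to a common library size, in 2 or more libraries were tested, and 79 of the 88 passed. A gene was called when edgeR's quasi-likelihood test gave a Benjamini-Hochberg adjusted p under 0.05 over the 11080 genes tested. A level is a CPM value scaled by the TMM factors, and a log2FC is a difference between groups.

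Promoters of 6 of these genes are shown because the genes differ in how their transcripts moved. Ndufa5 and Atp5g3 fell at 12 h, Cox8a was lower at 12 h than at 2 h, and Uqcrc1 had the highest log2FC at 12 h of the genes tested. Ndufaf4 and Ndufaf8, a pair of assembly factors, moved in opposite directions at 2 h. Each line gives 250 bases before and 50 after the transcription start from RefSeq on the build GRCm38.p6, and capitals mark matches to the motifs described after them.
Ndufa5, chr6:24527477-24527776, minus strand: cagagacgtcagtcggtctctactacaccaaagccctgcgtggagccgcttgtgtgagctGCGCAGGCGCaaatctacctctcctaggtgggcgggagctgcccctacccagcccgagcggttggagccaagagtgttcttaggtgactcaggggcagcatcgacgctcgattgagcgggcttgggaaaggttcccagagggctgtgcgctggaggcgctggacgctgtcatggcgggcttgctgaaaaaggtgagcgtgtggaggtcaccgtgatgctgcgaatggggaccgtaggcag
Atp5g3, chr2:73911277-73911576, minus strand: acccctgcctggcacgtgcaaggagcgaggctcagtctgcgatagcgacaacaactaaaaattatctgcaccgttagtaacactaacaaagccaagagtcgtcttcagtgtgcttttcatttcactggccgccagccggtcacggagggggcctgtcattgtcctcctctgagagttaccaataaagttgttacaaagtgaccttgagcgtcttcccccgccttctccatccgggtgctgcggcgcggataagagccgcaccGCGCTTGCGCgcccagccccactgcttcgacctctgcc
Cox8a, chr19:7217567-7217866, minus strand: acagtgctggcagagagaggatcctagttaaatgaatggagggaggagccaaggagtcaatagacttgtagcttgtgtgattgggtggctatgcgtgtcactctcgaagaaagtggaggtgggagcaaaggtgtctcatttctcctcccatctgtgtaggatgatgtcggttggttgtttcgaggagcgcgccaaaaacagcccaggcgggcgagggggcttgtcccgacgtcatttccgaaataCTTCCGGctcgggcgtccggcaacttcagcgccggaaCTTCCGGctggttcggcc
Uqcrc1, chr9:108936398-108936697, plus strand: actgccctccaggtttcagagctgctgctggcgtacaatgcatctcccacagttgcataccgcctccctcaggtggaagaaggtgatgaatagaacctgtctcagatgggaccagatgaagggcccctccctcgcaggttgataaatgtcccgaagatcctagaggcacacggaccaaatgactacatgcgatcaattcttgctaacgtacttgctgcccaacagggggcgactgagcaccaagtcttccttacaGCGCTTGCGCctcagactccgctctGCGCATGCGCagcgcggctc
Ndufaf4, chr4:24897833-24898132, plus strand: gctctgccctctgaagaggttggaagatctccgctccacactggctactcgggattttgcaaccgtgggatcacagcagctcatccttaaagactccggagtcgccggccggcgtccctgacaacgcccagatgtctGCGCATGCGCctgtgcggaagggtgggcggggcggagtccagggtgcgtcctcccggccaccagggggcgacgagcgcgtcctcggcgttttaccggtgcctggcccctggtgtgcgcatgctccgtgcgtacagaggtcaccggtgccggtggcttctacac
Ndufaf8, chr11:120098684-120098983, plus strand: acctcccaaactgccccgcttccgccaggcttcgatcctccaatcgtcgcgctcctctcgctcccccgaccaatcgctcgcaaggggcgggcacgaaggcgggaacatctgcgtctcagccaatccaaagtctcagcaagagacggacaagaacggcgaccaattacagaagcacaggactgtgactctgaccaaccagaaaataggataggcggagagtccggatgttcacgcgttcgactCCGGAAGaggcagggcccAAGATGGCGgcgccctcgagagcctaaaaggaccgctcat

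The letters searched, on both strands, were GCGCA and GCGC with any single base between them for NRF1, CCGGAAG for ETS factors such as GABP, AANATGGCG for YY1 and TATAAA for the TATA box, and none of these strings contains another. RefSeq promoters were matched for 73 of the 88 genes and for 68 of those tested. The NRF1 string was in 15 of these 68 promoters (22.1%), in 11.5% of the promoters of 8850 other tested genes and in 4.6% of all 32851 promoters of the table. The YY1 string was in 13.2% of the 68 promoters, in 5.83% of those of the other tested genes and in 2.38% of all promoters. The ETS string was in 22.1%, 19.9% and 8.86%, and the TATA box in 7.35%, 6.97% and 13.6%, in the same order. By complex, the NRF1 string was found in 4 of 13 ATP synthase promoters, in 7 of 27 for accessory and 0 of 5 for core subunits of complex I, in 2 of 7 for assembly factors, in 1 of 5 for complex III and in 1 of 10 for complex IV. In the promoters printed, it starts 190 bases before the start site in Ndufa5, 113 before it in Ndufaf4, 12 after it in Atp5g3, and 5 and 30 after it in Uqcrc1, counting the start site as 0. Cox8a holds the ETS string at -5 and 32, and Ndufaf8 holds it at -8 with the YY1 string at 10. These matches describe the letters in a window and do not show binding.

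Total counts ranged from 14705886 to 23786993 per library. The genes as a group took 1.14% and 1.24% of all counts in the vehicle libraries, 1.09% and 1.38% at 2 h and 0.889% and 0.978% at 12 h, so both 12 h libraries lay below the other 4. The 95% binomial (Wilson) interval was 0.885% to 0.893% in the lowest library and 1.37% to 1.38% in the highest, which covers counting error only. Lower levels at 12 h in bulk RNA could come from fewer transcripts in each cell or from fewer cells that carry them, and these cannot be told apart. As a check of the labels, the TGFβ targets Smad7, Skil, Ctgf and Pmepa1 were higher at both times, while Id1, another target, was not called at 2 h (log2FC 0.09) and fell by 1.84 on the log2 scale at 12 h. Of the epithelial genes, Krt8 and Krt18 had at least 1016 CPM in every library and were higher at 12 h. Krt19 had 1847 and 1666 CPM in vehicle and 420.4 and 490 at 12 h, and Epcam had 2 to 16 counts. Cdh1 and Ocln were not called. With the replicate number as a block, Ocln was lower at 12 h (edgeR's adjusted p = 0.00936). With it Cdh1 was higher at 2 h (edgeR's adjusted p = 0.0111) and lower from 2 h to 12 h (0.0025). Of 6 markers of other cell types, Cd68 and Alb passed the filter, while Ptprc had 0 to 4 counts, Pecam1 0 to 2, Cdh5 1 to 39 with the most at 12 h, and Hbb-b1 0 to 40 with 0 in all replicate 1 libraries. Alb, a liver gene, had 187 and 70.4 CPM with vehicle, 171 and 51.7 at 2 h and 43.8 and 11.8 at 12 h, and the summed counts of the 6 markers were 3286 and 1224, 3508 and 1195, and 1140 and 400. Their part in the results was not tested.

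Replicate 2 at 2 h stood apart in these genes by the size of its difference from replicate 1. Its level was above that of replicate 1 for 64 of the 79 genes (81%), against 50.6% of the 11001 other tested genes. The median log2 difference was 0.256, against 0.00472 over those other genes. Replicate 2 was also higher for 56 of the 79 genes in vehicle (70.9%, others 50.2%) and for 63 at 12 h (79.7%, others 57%). In vehicle the median difference was 0.0589, and at 12 h it was 0.123. The transcripts of these genes are short, with a median annotated exon length of 1282 bases against 3792 for the other tested genes. Among genes of up to 1000 bases, replicate 2 at 2 h exceeded replicate 1 by a median of 0.381 for 29 of the respiratory genes and by 0.251 for 396 others, and in the longest length class by 0.226 for 12 and by -0.0247 for 6881 others. Both gene groups thus had their highest difference in the shortest class, and the part of length in it was not tested. Counts of calls and medians at 2 h and between 12 h and 2 h are followed by those without this library, while counts of groups that do not overlap use all libraries.

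**Figure D1:**
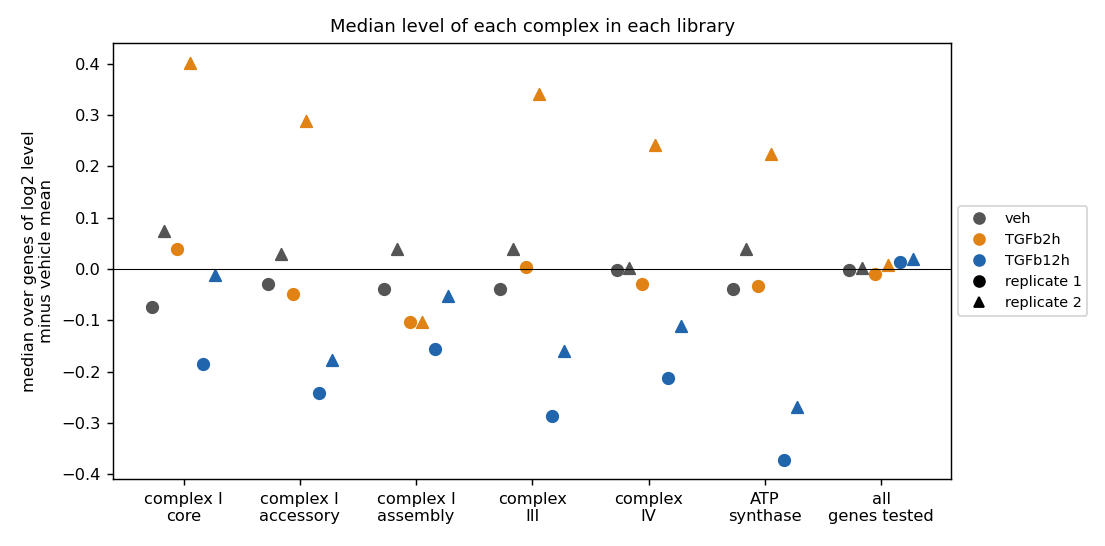
Median log2 level of the tested genes of each complex in each of the 6 libraries, relative to the mean of the vehicle libraries. Circles are replicate 1 and triangles replicate 2, colors mark the groups, and the last column gives all 11080 genes tested. The triangles of 2 h reach 0.402 for complex I core subunits and 0.341 for complex III, while both 12 h libraries of every complex lie below 0.

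Levels in vehicle, divided by the length of the coding transcript, spanned more than 2 orders of magnitude on the per-kb scale. ATP synthase genes had a median of 225 CPM per kb and were led by Atp5b, the catalytic beta subunit, at 1052, with Atp5l lowest at 4.55. Complex IV genes had a median of 271 and were led by Cox4i1, the largest nuclear subunit, at 643, with Cox7a1 lowest at 9.64. Complex III genes had a median of 153, from 333 for Uqcrh, the hinge protein, to 76 for Uqcrb. Complex I subunits had a median of 87.1, from 271 for Ndufb9 to 8.29 for Ndufab1, the mitochondrial acyl carrier protein. The assembly factors, which are not part of the finished enzyme, had a median of 14.1, from 29.5 for Ndufaf4 to 3.69 for Ndufaf6. These levels are a description of a single length model for each gene, and Ndufb8, for which no transcript was found, is left out of them.

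Counts of complex IV came almost wholly from the general isoforms rather than from those restricted to some tissues or from the paralog Ndufa4l2. Cox4i2, Cox7b2, Cox8b and Cox8c had 0 counts in every library, where 3 counts, the limit that 0 allows, correspond to 0.126 to 0.204 CPM. Cox6b2 had 1 count in a single library, Cox6a2 had 0 to 3 counts and Ndufa4l2 had 2 to 7. Their general partners were Cox4i1 with 435.8 and 438 CPM, Cox6b1 with 235.5 and 242 CPM, Cox6a1 with 166 and 172 CPM, Cox8a with 187 and 178 CPM and Ndufa4 with 228 and 252 CPM in the vehicle libraries. Cox7a1, the heart and skeletal muscle isoform, held 1.2% and 0.978% of the counts of its set with Cox7a2 and Cox7a2l in vehicle, 0.916% and 1.06% at 2 h and 0.26% and 0.662% at 12 h. The share of Cox7a2l, a factor of supercomplex assembly, was 37.5% and 34.6% in vehicle, 41.1% and 32.5% at 2 h, and 44.2% and 44.3% at 12 h. The 12 h libraries were below all others for the share of Cox7a1 and above all others for that of Cox7a2l.

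The authors kept uniquely mapped reads, so a gene whose sequence is copied elsewhere in the genome can lose counts. Of the 87 genes with a position on NCBIM37 (the mm9 build), 43 had no 50-base window of their transcripts that was found exactly elsewhere, and 5 had over 50% of windows elsewhere. Atp5g2, which encodes the same c-ring protein as Atp5g1 and Atp5g3, had 100% of its windows elsewhere and 19 to 40 counts per library, below the filter. Atp5l, the g subunit, had 89.4% elsewhere. Its counts were 13 and 61 in vehicle, 23 and 109 at 2 h, and 22 and 65 at 12 h, so replicate 2 was the higher in each group. Cox7c, with 29.8% elsewhere, had 26 to 42 counts and was also below the filter. For Uqcrb (61.5%), Cox5b (56.5%), Cox7a2l (53.1%), Atp5h (49%), Ndufs3 (43%), Ndufs5 (42.2%) and Ndufb4 (41.3%) a count can likewise miss reads of the gene, and such levels are uncertain. Within the c-ring set, Atp5g3 held 96.1% to 97.7% of the reads counted in all 6 libraries. That share leaves out reads of Atp5g2 that could not be placed, and can miss reads of Atp5g1, which had 28.1% of its windows elsewhere.

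**Figure D2:**
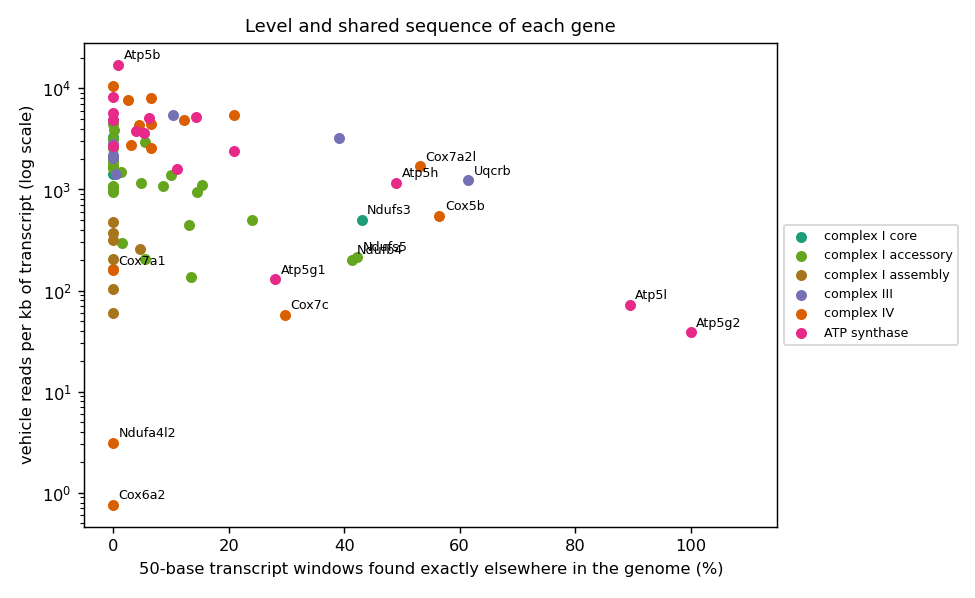
Vehicle reads per kb of coding transcript (mean raw count of the 2 libraries, log scale) of each gene with vehicle counts, against the share of its 50-base transcript windows found exactly elsewhere in the genome. Atp5s and Ndufb8, which had no position on NCBIM37, are left out. Atp5l at 89.4% and Atp5g2 at 100% lie far right and low, and genes at or near 0% span the whole range of levels.

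At 12 h of TGFβ the genes lay lower than in vehicle, by a small amount and across complexes. Of the 79 tested, 66 had a log2FC below 0 (83.5%, against 48.8% of all genes tested), and the median log2FC was -0.20 against 0.02 for all genes. The median was -0.28 for ATP synthase, -0.24 for complex III, -0.21 for accessory and -0.09 for core subunits of complex I, -0.17 for complex IV and -0.11 for complex I assembly factors. Both 12 h libraries lay below both vehicle libraries for 50 of the 79 genes, against a background of 37.2% of all genes, and above them for 6, against a background of 39.5%. By complex the 50 comprised 22 of 29 accessory and 2 of 7 core subunits of complex I, 9 of 14 genes of ATP synthase, 6 of 8 of complex III, 7 of 12 of complex IV, 3 of 8 assembly factors and Atp5s. The differences between complexes were not tested.

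Called by the test across all genes, 11 of the 79 were lower at 12 h (13.9%), where 21.5% of all genes tested were called lower. No gene of the group was called higher by edgeR's adjusted p (background 21.8%), and 0 by limma-voom (background 21.8%) and by DESeq2 (background 21.9%). At an unadjusted p under 0.05 from edgeR there was 1, a limit at which the share of all genes was not counted. By limma-voom 12 were lower (background 21.3%). In this fit the share called lower was below the background, and in others it was above it. With the replicate number as a block, 28 were called lower (35.4%, background 27.5%) and Uqcrc1 higher (background 27.8%). Without replicate 2 of 2 h, which enters through the shared spread, 25 were called lower (31.6%, background 24.4%) and 1 higher (background 24.5%). Leaving out a vehicle or 12 h library gave 2 to 8 called lower, with 2 without replicate 1 of 12 h (background 13.6%), 8 without replicate 2 of 12 h (background 14.1%), and 5 and 3 without replicates 1 and 2 of vehicle (background 16.1% and 15.9%). Past an absolute log2FC of 1 there were 2 genes, Cox7a1 and Atp5s, both lower, with a background of 11.6% lower and 8.03% higher.

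**Figure D3:**
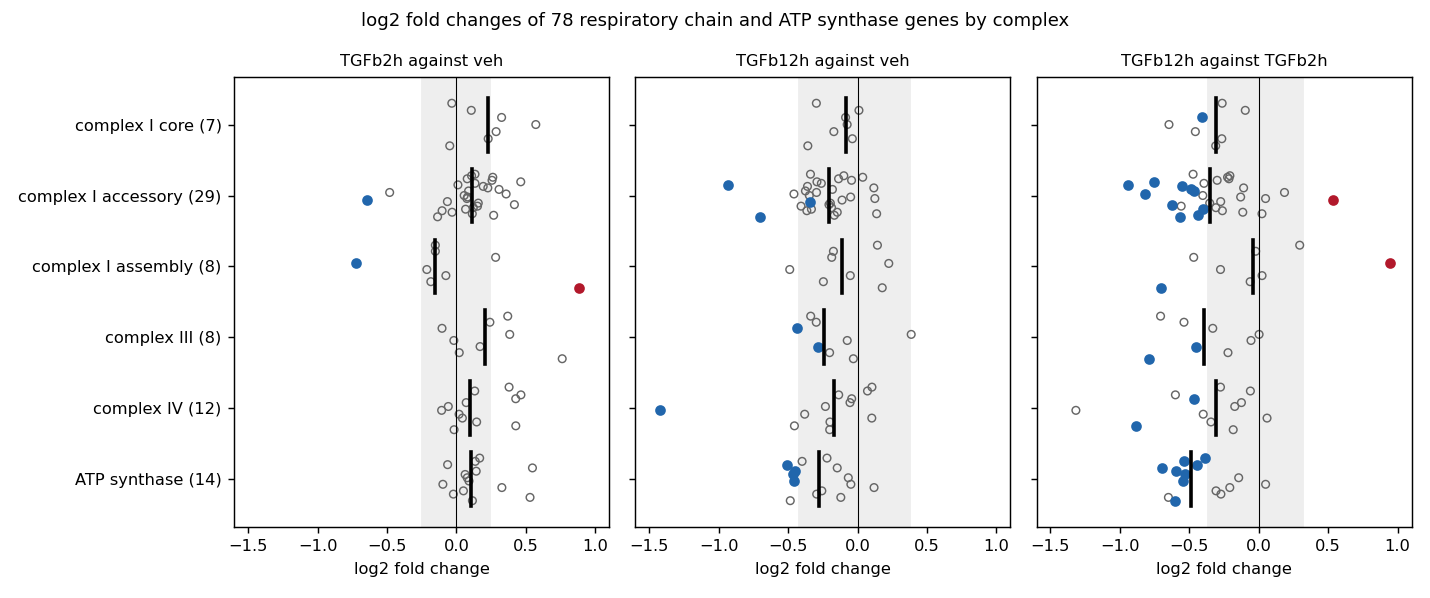
log2FC of the tested genes of each complex in the 3 comparisons, with Atp5s, which belongs to none, left out. Open circles are genes not called, blue and red points genes called lower and higher at edgeR's adjusted p under 0.05, black bars the median of a complex, and the grey band the middle 50% of all genes tested. At 12 h against vehicle the black bars of all 6 groups lie left of 0 and inside the grey band.

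In ATP synthase, 4 of 14 genes were called lower at 12 h (background 21.5%), and 7 with a replicate block (background 27.5%), with Atp5b, Atp5o and Atp5j2 added. Atp5c1, the gamma subunit that forms the rotating shaft, had 307 and 318 CPM in vehicle, 273 and 326 at 2 h and 204 and 235 at 12 h. It fell by 0.51 on the log2 scale at 12 h (SE 0.128, edgeR's adjusted p = 0.0182). Both 12 h libraries lay below the other 4. Atp5f1, the b subunit of the peripheral stalk, had 212 and 220.0 CPM in vehicle, 215 and 236 at 2 h and 153 and 160 at 12 h, a log2FC of -0.47 at 12 h (SE 0.0995, edgeR's adjusted p = 0.00965). Its groups of vehicle and 12 h did not overlap. Atp5g3, the c-ring gene with the most reads placed, had 231 and 270.1 CPM in vehicle, 265 and 268 at 2 h and 184 and 181 at 12 h. Its log2FC at 12 h was -0.46 (SE 0.109, edgeR's adjusted p = 0.0148). Atp5e, the epsilon subunit at the foot of the rotor, had 124 and 126 CPM in vehicle, 129 and 146 at 2 h and 85.1 and 96.9 at 12 h, a log2FC of -0.45 (SE 0.114, edgeR's adjusted p = 0.0183). All 4 lost their call without replicate 2 of vehicle and without replicate 1 of 12 h, Atp5c1 and Atp5e also without replicate 1 of vehicle and Atp5g3 also without replicate 2 of 12 h, with an adjusted p from edgeR of at most 0.11. For Atp5b, the beta subunit and the most abundant gene of the group, the levels were 1888 and 2145 CPM in vehicle, 1975 and 2454 at 2 h and 1439 and 1618 at 12 h. Its log2FC of -0.40 at 12 h did not pass (SE 0.147, edgeR's adjusted p = 0.0666 without and 0.00848 with a replicate block). Its share of the group's counts was 17.2% and 18.4% in vehicle and 15.6% and 16% at 12 h.

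In complex I, 3 of 29 accessory subunits were called lower at 12 h (background 21.5%), and 11 with a replicate block (background 27.5%). Ndufa5, an accessory subunit of the arm that reaches into the matrix, had 32 and 40.7 CPM in vehicle, 31 and 42.2 at 2 h and 19.5 and 18.5 at 12 h. It fell by 47.7%, a log2FC of -0.93 (SE 0.193, edgeR's adjusted p = 0.00851), and its log2FC at 2 h was 0.01. Ndufv3, an accessory subunit of the NADH-binding module, had 103 and 103 CPM in vehicle, 94.5 and 92.9 at 2 h and 60.1 and 66.6 at 12 h. Its log2FC at 12 h was -0.70 (SE 0.0988, edgeR's adjusted p = 0.00181), and it stayed called under the 14 alternative fits, though not past an absolute log2FC of 1. Ndufb5, of the membrane arm, had 96.5 and 99.6 CPM in vehicle, 94.6 and 92.9 at 2 h and 73.6 and 81.4 at 12 h, a log2FC of -0.34 (SE 0.099, edgeR's adjusted p = 0.0313). Ndufa5 lost its call without either 12 h library (edgeR's adjusted p at most 0.0626) and Ndufb5 without any vehicle or 12 h library (at most 0.16). Ndufa5 and Ndufv3 lay outside the spread of the remaining accessory subunits, whose log2FC at 12 h ran from -0.46 to 0.14. Of the 7 core subunits, which carry the redox centers, edgeR called 0 lower (background 21.5%), limma-voom 0 (background 21.3%) and DESeq2 2 (background 22.5%). The same 2 had an unadjusted p under 0.05 from edgeR. The 2 were Ndufv2, of the NADH-binding module, with a log2FC of -0.36 and Ndufs1, the largest core subunit, with -0.30, and both passed with a replicate block (edgeR's adjusted p = 0.00802 and 0.0182).

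In complex III, 2 of 8 genes, Uqcrb and Uqcrfs1, were called lower at 12 h (background 21.5%). Uqcrfs1, the Rieske iron-sulfur protein that takes electrons from ubiquinol, had 175 and 170 CPM in vehicle, 193 and 195 at 2 h and 140 and 144 at 12 h. Its log2FC at 12 h was -0.28 (SE 0.0912, edgeR's adjusted p = 0.0449), and leaving out any library of the vehicle or 12 h groups raised that p above 0.05, to at most 0.2. Uqcrb, a small subunit with 61.5% of its windows found elsewhere, had 38.8 and 42.6 CPM in vehicle, 38.1 and 37.6 at 2 h and 27.6 and 32.6 at 12 h, a log2FC of -0.44 (SE 0.127, edgeR's adjusted p = 0.0319), and its call was lost without either vehicle library or replicate 1 of 12 h (at most 0.165). Uqcrc1, a core protein of the matrix side, went the other way and was chosen after its values were seen. It had 223 and 245 CPM in vehicle, 265 and 345 at 2 h and 290.5 and 321 at 12 h, so that all 4 treated libraries lay above both vehicle libraries. Its log2FC was 0.38 at 2 h (SE 0.148, edgeR's adjusted p = 0.142 without and 0.0218 with a replicate block) and 0.39 at 12 h (SE 0.148, edgeR's adjusted p = 0.0765 without and 0.00945 with it). Uqcrc2, the partner core protein, had 246 and 245 CPM in vehicle and 224 and 242 at 12 h, a log2FC of -0.07.

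In complex IV, 1 of 12 genes, Cox7a1, was called lower at 12 h (background 21.5%). With a replicate block 3 of 12 were called lower (background 27.5%), with the general subunits Cox7a2 and Cox8a among them. Cox7a1 had 65 and 50 counts in vehicle, 54 and 75 at 2 h and 16 and 38 at 12 h, which is 3.83 and 3.19, 2.73 and 3.79, and 0.697 and 1.95 CPM. The 12 h libraries differed from each other as much as from vehicle on the log scale, and the log2FC of -1.42 had an SE of 0.473 (edgeR's adjusted p = 0.0491). Without replicate 1 of 12 h the log2FC was -0.86, and leaving out that library or either vehicle library put edgeR's adjusted p between 0.0993 and 0.165. Cox8a, the smallest general subunit, had 187 and 178 CPM in vehicle, 207 and 284 at 2 h and 133 and 134 at 12 h. Its log2FC at 12 h was -0.46 (SE 0.155, edgeR's adjusted p = 0.0532 without and 0.0142 with a replicate block). Cox7a2, the general partner of Cox7a1, had 195 and 210.0 CPM in vehicle, 173 and 238 at 2 h and 149 and 162 at 12 h, a log2FC of -0.38 at 12 h (SE 0.162, edgeR's adjusted p = 0.101 without and 0.0161 with a replicate block). Both 12 h libraries lay below both vehicle libraries. Cox4i1, Cox5a, Cox6a1, Cox6b1 and Cox7a2l had a log2FC between -0.05 and 0.10 at 12 h.

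Outside the complexes, Atp5s was the gene with the lowest adjusted p after Ndufv3, and it was chosen after its values were seen. It had 11.6 and 10.9 CPM in vehicle, 10.2 and 6.96 at 2 h and 4.84 and 4.21 at 12 h. It fell by 59.7% at 12 h, a log2FC of -1.31 (SE 0.235, edgeR's adjusted p = 0.00479). The levels at 2 h lay between those of vehicle and 12 h.

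**Figure D4:**
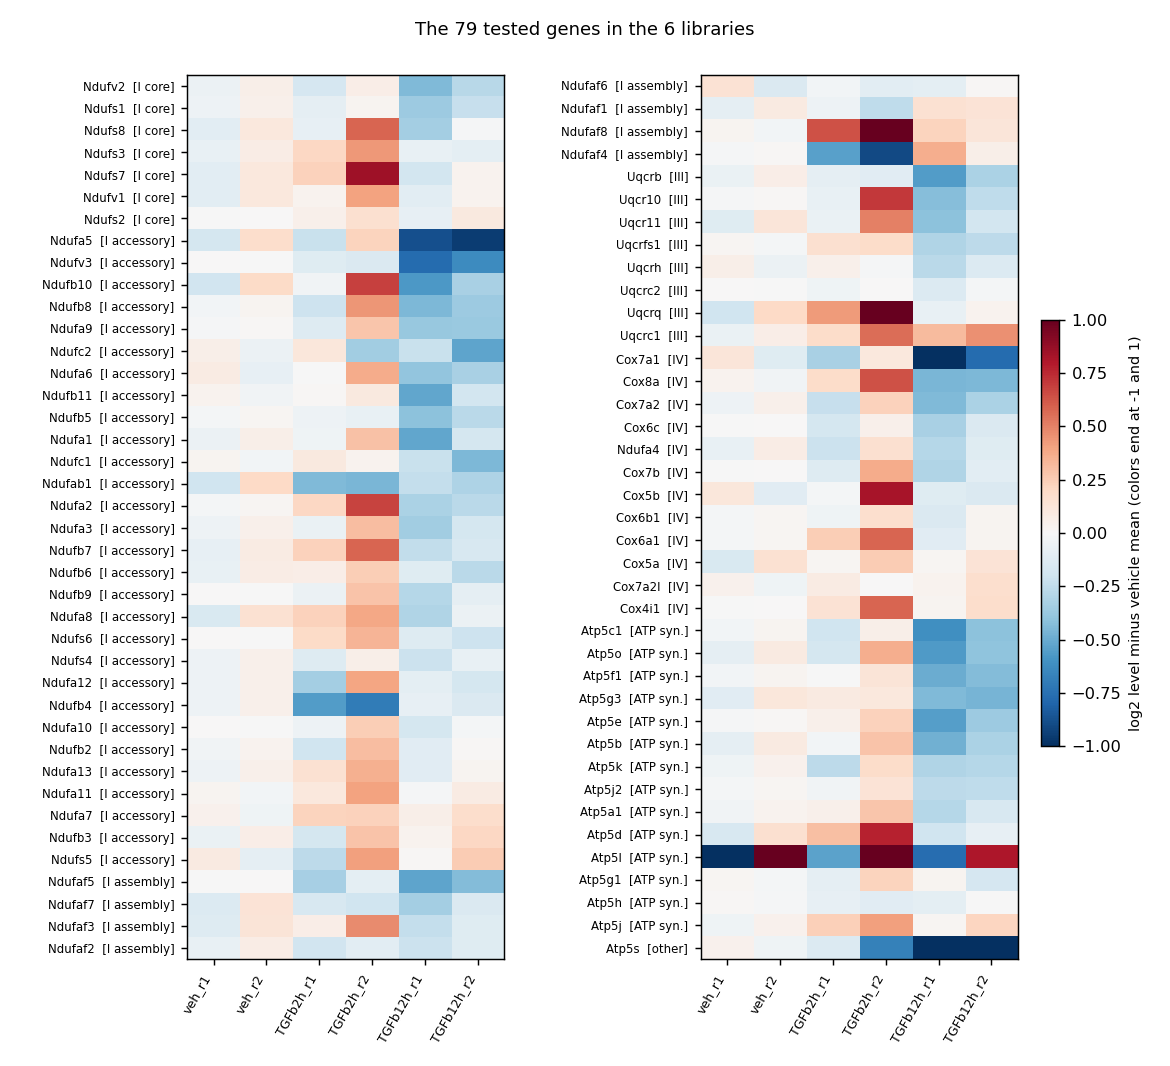
log2 level of each of the 79 tested genes in each library relative to the mean of the vehicle libraries, red above and blue below, with colors ending at -1 and 1. Genes are grouped by complex, given in brackets, and sorted by log2FC at 12 h. The column of TGFb2h_r2 is the reddest and the 12 h columns are mostly blue, with Uqcrc1, Ndufaf4 and Ndufaf8 among the exceptions.

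At 2 h of TGFβ few of the genes were called, and a pair of complex I assembly factors moved in opposite directions. Over the 79 genes, edgeR called 1 higher (1.27%, background 9.91%) and 2 lower (2.53%, background 5.25%). DESeq2 called 4 and 2 (background 11.7% and 7.17%), and limma-voom 1 and 2 (background 9.7% and 5.53%). At an unadjusted p under 0.05 from edgeR there were 13 and 2, a limit at which the share of all genes was not counted. None of these log2FC values was past 1 in size, against a background of 4.23% higher and 2.01% lower. The median log2FC was 0.11, and -0.045 without replicate 2 of 2 h, against -0.01 for all genes. Without that library the medians were 0.03 for core and -0.05 for accessory subunits of complex I, -0.11 for assembly factors, 0.0035 for complex III, -0.03 for complex IV and -0.03 for ATP synthase, where with it they were 0.23, 0.11, -0.15, 0.20, 0.10 and 0.10. The groups did not overlap upward for 22 of the 79 genes (background 28.3%) and downward for 11 (background 27.5%). With the block 12 genes were called higher (background 16.4%) and 2 lower (background 12.7%). Without replicate 2 of 2 h edgeR called 0 in either direction (background 8.52% and 3.42%), and it also called 0 without either vehicle or either 12 h library (background 4.5% to 5.96% higher and 1.25% to 2.24% lower). Without replicate 1 of 2 h, 14 were called higher (background 11.3%) and 2 lower (background 8.57%).

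Ndufaf8, an assembly factor that acts with Ndufaf5 on a core subunit of complex I, had 8.01 and 7.71 CPM in vehicle, 12.3 and 16.6 at 2 h and 9.2 and 8.58 at 12 h. It rose by a log2FC of 0.88 at 2 h (SE 0.195, edgeR's adjusted p = 0.0284). Ndufaf4, an assembly factor of the matrix arm, had 19.7 and 19.9 CPM in vehicle, 13.6 and 10.5 at 2 h and 25.6 and 20.7 at 12 h, a log2FC of -0.72 at 2 h (SE 0.184, edgeR's adjusted p = 0.0449). At 12 h both libraries of each gene lay above both vehicle libraries, by log2FC values of 0.18 and 0.22 that did not pass. Ndufb4, a membrane arm subunit with 41.3% of its windows elsewhere, had 11.5 and 12.4 CPM in vehicle, 8.05 and 7.27 at 2 h and 11.3 and 10.8 at 12 h, a log2FC of -0.65 at 2 h (SE 0.16, edgeR's adjusted p = 0.0405). For these 3 genes both 2 h libraries lay outside the range of the other 4. Each lost its call when any library except replicate 1 of 2 h was left out, with an adjusted p of at most 0.189 from edgeR. The other assembly factors had log2FC values from -0.21 for Ndufaf5 to 0.28 for Ndufaf3 at 2 h.

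Several subunit genes were highest in replicate 2 of 2 h. Uqcrq, a small subunit of complex III, had 37.9 and 49.9 CPM in vehicle, 58.5 and 90.3 at 2 h and 41.3 and 44.7 at 12 h. Its log2FC at 2 h was 0.76 (SE 0.228, edgeR's adjusted p = 0.0726 without and 0.00264 with a replicate block), and 0.41 without replicate 2 of 2 h. Atp5d, the delta subunit of the rotor, had 137 and 171 CPM in vehicle, 189 and 262 at 2 h and 134 and 145 at 12 h. Its log2FC at 2 h was 0.55 (SE 0.184, edgeR's adjusted p = 0.0998 without and 0.00526 with it), and 0.29 without replicate 2 of 2 h. In both genes each 2 h library lay above both vehicle libraries.

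Between 2 h and 12 h, subunit genes of every complex were among those that fell. Of the 79 genes, 25 were called lower (31.6%, background 18.9%) and 2 higher (2.53%, background 15.2%). The median log2FC was -0.34 against 0.01 for all genes, and by complex it was -0.49 for ATP synthase, -0.39 for complex III, -0.35 for accessory and -0.31 for core subunits of complex I, -0.31 for complex IV and -0.04 for assembly factors. The 12 h libraries lay below both 2 h libraries for 51 genes (background 34.2%) and above them for 4 (background 34.8%). Without replicate 2 of 2 h, 10 were called lower (12.7%, background 17.9%), and the median was -0.20, with -0.29 for ATP synthase, -0.26 for complex III, -0.25 for accessory and -0.19 for core subunits, -0.06 for complex IV and -0.05 for assembly factors. With the block 45 were called lower (background 25.2%) and 2 higher (background 23.3%), and limma-voom called 22 lower (background 18.3%). Past an absolute log2FC of 1 edgeR called 0 of the genes, against a background of 9.87% lower and 4.5% higher. Of the 12 h libraries, leaving out replicate 1 gave 0 called lower (background 9.31%) and replicate 2 gave 4 (background 9.93%), and leaving out replicate 1 of 2 h gave 42 (background 19.2%). Without either vehicle library 16 were called lower (background 17.2% and 17.3%).

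The genes called lower between 2 h and 12 h, against a background of 18.9%, comprised 8 of 14 of ATP synthase and 10 of 29 accessory and 1 of 7 core subunits of complex I. The others were 2 of 8 of complex III, 2 of 12 of complex IV, Ndufaf8 and Atp5s. The medians without replicate 2 of 2 h are given above. Cox8a fell by 0.88 on the log2 scale (SE 0.156, edgeR's adjusted p = 0.00646), from 207 and 284 to 133 and 134 CPM, and by 0.64 without replicate 2 of 2 h. Ndufa5 fell by 0.94 (SE 0.192, edgeR's adjusted p = 0.0109), from 31 and 42.2 to 19.5 and 18.5 CPM. In ATP synthase, Atp5d fell by 0.69 (SE 0.184, edgeR's adjusted p = 0.0276), Atp5o, which links the peripheral stalk to the head, by 0.60 (SE 0.187, edgeR's adjusted p = 0.0483) and Atp5e by 0.60 (SE 0.114, edgeR's adjusted p = 0.00872). In these genes both 12 h libraries lay below both 2 h libraries. The levels of Atp5o were 168 and 191 CPM in vehicle, 158 and 230 at 2 h and 121 and 135 at 12 h. Ndufb10, of the membrane arm, had 63.6 and 83 CPM in vehicle, 71 and 117 at 2 h and 48.6 and 58 at 12 h, and Ndufa2, of the matrix arm, had 88.3 and 91, 103 and 144, and 71.9 and 74.5 CPM. Their log2FC from 2 h to 12 h was -0.82 (SE 0.252, edgeR's adjusted p = 0.0466) and -0.76 (SE 0.16, edgeR's adjusted p = 0.0125). Both were above vehicle in replicate 2 of 2 h and below it at 12 h. Without that library the log2FC was -0.41 for Ndufb10 (edgeR's adjusted p = 0.136), -0.30 for Atp5o (0.139), -0.44 for Atp5d (0.0695), -0.51 for Atp5e (0.0209), -0.70 for Ndufa5 (0.0233) and -0.50 for Ndufa2 (0.0153). The calls of Ndufb10, Atp5o and Atp5d were thus lost without it, and those of Ndufb10 and Atp5o also without any vehicle or 12 h library, with an adjusted p from edgeR of at most 0.225 and 0.219.

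The remaining genes named for this comparison were Ndufs3, Uqcrq, Uqcrfs1 and Cox6a1 on the falling side. Ndufs3, a core subunit of the quinone module, had 30.4 and 33.8 CPM in vehicle, 37 and 43.5 at 2 h and 30.5 and 30 at 12 h, a log2FC of -0.41 from 2 h to 12 h (SE 0.128, edgeR's adjusted p = 0.0474). Cox6a1, a general subunit of complex IV, had 166 and 172, 201 and 254, and 156 and 172 CPM, a log2FC of -0.47 (SE 0.135, edgeR's adjusted p = 0.0373). Neither was called at 12 h against vehicle. For Uqcrq the log2FC was -0.79 (edgeR's adjusted p = 0.0365) and for Uqcrfs1 -0.45 (edgeR's adjusted p = 0.0105). Ndufaf4 and Ndufb4 rose from 2 h to 12 h, by 0.95 (SE 0.183, edgeR's adjusted p = 0.00902) and 0.53 (SE 0.159, edgeR's adjusted p = 0.0412). Without replicate 2 of 2 h the log2FC was -0.29 for Ndufs3 (edgeR's adjusted p = 0.167), -0.29 for Cox6a1 (0.115), -0.44 for Uqcrq (0.0996), -0.47 for Ndufaf8 (0.129) and 0.46 for Ndufb4 (0.138), so these calls were lost, while Uqcrfs1 at -0.44 (0.0242) and Ndufaf4 at 0.77 (0.0226) still passed.

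The rest of the pathway was read from lists of complex II, of further assembly factors and cytochromes, and of regulators of mitochondrial gene expression. Complex II is the succinate dehydrogenase that also feeds the chain. Its list of 7 genes held the subunits Sdha, Sdhb, Sdhc and Sdhd and the assembly factors Sdhaf1, Sdhaf2 and Sdhaf4. Of these 7 genes, 2 were lower at 12 h (28.6%, background 21.5%), and both encode subunits. Sdhd, a membrane anchor subunit, had 264 and 280.2 CPM in vehicle, 285 and 317 at 2 h and 147 and 157 at 12 h, a log2FC of -0.84 at 12 h (SE 0.105, edgeR's adjusted p = 0.00108). All 4 earlier libraries lay above both 12 h libraries. Sdha, the flavoprotein, had a log2FC of -0.44 (SE 0.11, edgeR's adjusted p = 0.017), and Sdhb and Sdhc, which did not pass, -0.25 and -0.27. With a replicate block Sdhc passed (edgeR's adjusted p = 0.0286).

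Among 36 further genes of the chain, mostly assembly factors, with cytochromes c and c1 and the ATP synthase proteins Atpif1 and Usmg5, 8 were lower (22.2%, background 21.5%) and 2 higher (5.56%, background 21.8%) at 12 h. Coa3, which acts on a mitochondrially made subunit of complex IV, had 128 and 126 CPM in vehicle, 114 and 119 at 2 h and 55.2 and 58.9 at 12 h, a log2FC of -1.15 (SE 0.0963, edgeR's adjusted p = 0.000228). Cox20, a chaperone of another mitochondrially made subunit of complex IV, had 26 and 28, 21.9 and 16.8, and 12.1 and 11.1 CPM, a log2FC of -1.22 (SE 0.17, edgeR's adjusted p = 0.00175). Tmem126b, an assembly factor of complex I, fell by 1.03 on the log2 scale (SE 0.16, edgeR's adjusted p = 0.00263). The copper proteins Cox17 and Sco1, which deliver copper to complex IV, rose by 0.40 (SE 0.123, edgeR's adjusted p = 0.04) and 0.49 (SE 0.142, edgeR's adjusted p = 0.03).

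Among 13 tested regulators of mitochondrial gene expression, 4 were lower (30.8%, background 21.5%) and 1 higher (7.69%, background 21.8%) at 12 h. Of the 4, Ppargc1b and Ppara passed the filter only through the vehicle libraries, where they were high, so the count lower partly follows from the filter. Ppargc1a, which encodes the coactivator PGC-1α, had 20.9 and 25.9 CPM in vehicle, 5.26 and 7.22 at 2 h and 2.62 and 2.21 at 12 h. Its log2FC was -1.91 at 2 h (SE 0.223, edgeR's adjusted p = 0.00291) and -3.27 at 12 h (SE 0.242, edgeR's adjusted p = 0.000153). Ppargc1b, its relative PGC-1β, had 3.24 and 4.4, 1.27 and 1.31, and 0.959 and 0.873 CPM, a log2FC of -2.05 at 12 h (SE 0.302, edgeR's adjusted p = 0.00217). Ppara, a nuclear receptor of fatty acid oxidation genes, had low levels of 3.77 and 2.8 CPM in vehicle, 0.759 and 0.505 at 2 h and 0.654 and 0.822 at 12 h. Its log2FC was -2.37 at 2 h (SE 0.365, edgeR's adjusted p = 0.00784) and -2.15 at 12 h (SE 0.355, edgeR's adjusted p = 0.00338). Pprc1, the third member of the PGC-1 family, moved the other way, from 28.6 and 32.7 CPM in vehicle to 42.6 and 43.9 at 2 h and 76.1 and 73.9 at 12 h, a log2FC of 1.29 (SE 0.111, edgeR's adjusted p = 0.000251). The transcription factor genes Nrf1, Gabpa and Esrra, and Tfam, the packaging factor of mitochondrial DNA, did not pass at 12 h, with log2FC values of 0.35, 0.23, -0.15 and -0.30. With a replicate block Nrf1 passed upward and Tfam downward (edgeR's adjusted p = 0.0141 and 0.0395), and Tfam was also lower at 2 h (log2FC -0.42, edgeR's adjusted p = 0.0487). At 2 h Ppargc1a and Ppargc1b were lower and Pprc1 was higher (log2FC 0.50, edgeR's adjusted p = 0.0288). The median log2FC over the 79 genes at 2 h was 0.11, or -0.045 without replicate 2 of 2 h. A link between these regulators and the 79 genes was not tested.

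**Figure D5:**
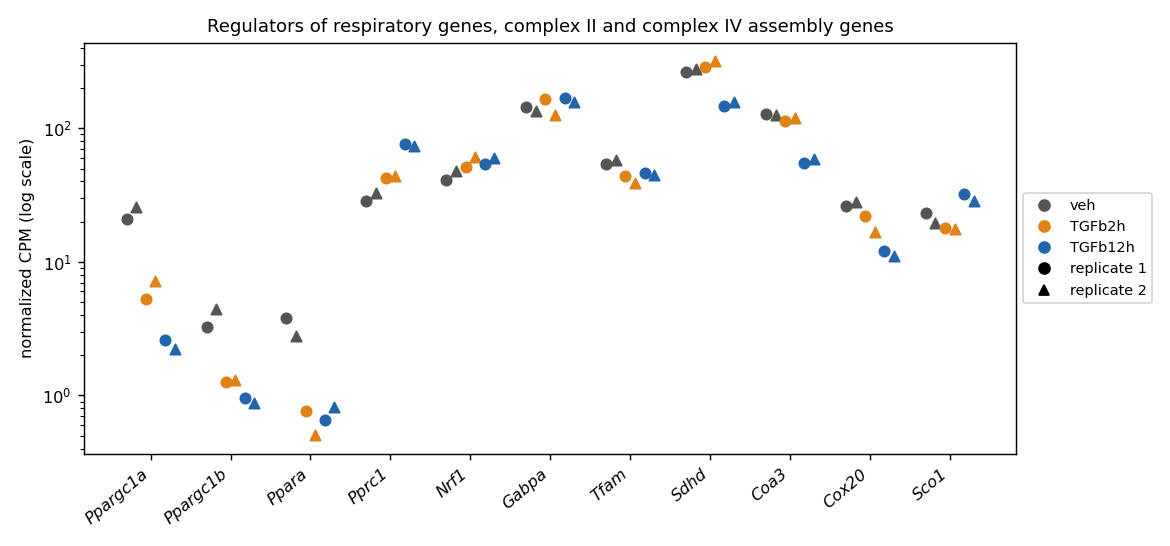
Level of 7 regulators and of 4 genes of complex II and complex IV assembly in each library, in TMM-normalized CPM on a log scale. Circles are replicate 1 and triangles replicate 2, and colors mark the groups. Ppargc1a steps down from 20.9 and 25.9 with vehicle to 2.62 and 2.21 at 12 h, and Pprc1 steps up from 28.6 and 32.7 to 76.1 and 73.9.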

How the data were processed

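Total RNA of 6 NMuMG libraries was sequenced with strand kept. Per the labels and methods of the study, the authors filtered reads with FASTQ Toolkit, aligned them with Subread's subjunc to mm9 keeping unique alignments, removed duplicates with SAMtools 0.1.19 and assigned reads by strand with featureCounts to UCSC KnownGenes. The deposited values are raw counts per gene, used unchanged. Unique mapping and duplicate removal can lower the counts of genes with near copies and of abundant short genes.

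From these counts, the genes reaching 2 CPM in 2 or more libraries entered a fit with edgeR 4.0.16 (quasi-likelihood, TMM factors, no block, all 6 libraries) in R 4.3.3, after the script was tested on simulated data. Each group had 2 libraries of at least 14705886 counts, and the median SE of a log2FC over the 79 genes was 0.146 to 0.147. Alternatives were DESeq2 1.42.0, limma-voom 3.58.1, other scalings and filters, the replicate number as a block, fits of 2 groups and each library left out. Same-numbered libraries deviated together, with correlations of 0.708, 0.263 and 0.392 over all genes (0.581, 0.542 and 0.594 over the respiratory genes) for vehicle with 2 h, vehicle with 12 h and 2 h with 12 h. The labels name the numbers as replicates only, so the pairing comes from these correlations.

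The genes and lists were chosen with earlier results of these data known. Named with values were up to 3 called genes per complex, direction and comparison with the largest log2FC, all paralogs, all genes under the filter, the highest and lowest gene per kb, and for the other lists up to 3 called genes per direction at 12 h and the subunits of complex II. Other genes given with values fall outside this rule and are to be read as chosen after their values were seen. Among them are Uqcrc1, Uqcrc2, Atp5s, Ndufv2, Ndufs1, Nrf1, Gabpa, Esrra and Tfam. Windows of 50 bases of the transcripts on NCBIM37 (mm9) were searched for exact copies on 22 sequences of that genome, on both strands, and promoters came from the RefSeq table on GRCm38.p6. Levels per kb used the median length of a gene's coding transcripts. Promoters on some chromosomes are not printed here.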

Additional observations from a re-analysis of the deposited data

Results flagged for a closer look

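For 18 of the genes named by the rule the response at 12 h differed from the response at 2 h, by edgeR's test of the difference between the times, which is the comparison of 12 h with 2 h because both share the vehicle libraries. Most of these genes were named because that same comparison called them, so their number and directions restate the choice. Over all 79 tested genes the test called 25 lower (31.6%, background 18.9%) and 2 higher (2.53%, background 15.2%), and without replicate 2 of 2 h 10 lower (12.7%, background 17.9%) and 1 higher (background 13.3%). The 12 h minus 2 h difference in log2FC in complex I was -0.94 for Ndufa5, -0.82 for Ndufb10, -0.76 for Ndufa2, -0.56 for Ndufv3, -0.41 for Ndufs3 and -0.70 for the assembly factor Ndufaf8. In complex III it was -0.79 for Uqcrq and -0.45 for Uqcrfs1, and in complex IV -0.88 for Cox8a and -0.47 for Cox6a1. In ATP synthase it was -0.69 for Atp5d, -0.60 for Atp5o, -0.60 for Atp5e, -0.55 for Atp5g3, -0.53 for Atp5f1 and -0.45 for Atp5c1. The difference was positive for Ndufaf4, at 0.95, and for Ndufb4, at 0.53. Replicate 2 was above replicate 1 for 64 of the 79 genes at 2 h, for 63 at 12 h and for 56 in vehicle. The part of replicate 2 of 2 h in these differences was not tested beyond leaving it out.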

How the results depend on the processing

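At 2 h, the 1 gene called higher became 4 by DESeq2 (background 11.7%), 2 with no low-count filter (6.96%), 12 with the replicate block (16.4%), 0 with only the 2 groups compared (5.81%) and 0 past an absolute log2FC of 1. The 2 called lower became 1 with no filter (background 3.58%), 0 with 2 groups (2.25%) and 0 past the limit. At 12 h against vehicle, the 11 called lower became 23 with total counts (29.1%, background 27.5%), 17 by DESeq2 (21.5%, background 22.5%), 28 with the block (35.4%, background 27.5%), 27 with 2 groups (34.2%, background 25.3%) and 2 past the limit, and the 0 called higher became 1 with the block and 1 with 2 groups. From 2 h to 12 h, the 25 called lower became 45 with the block (57%, background 25.2%), 16 with 2 groups (20.3%, background 17.3%) and 0 past the limit, and the 2 called higher became 1 by DESeq2, with no filter and with 2 groups, and 0 past the limit. Total counts moved the median of all genes to -0.12 at 2 h and -0.115 at 12 h, and the medians of the 79 genes by about as much. At 2 h they became 0.000311 over all 79, 0.119 for core, 0.00933 for accessory subunits, -0.264 for assembly factors, 0.0964 for complex III, -0.00916 for complex IV and -0.00703 for ATP synthase. At 12 h they became -0.328, -0.217, -0.337, -0.242, -0.371, -0.297 and -0.406 in the same order.

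With each library left out in turn, where a lone sample is assumed to vary like the other groups, calls at 2 h ran from 0 to 14 higher and 0 to 2 lower, at 12 h from 0 to 1 and 2 to 27, and from 2 h to 12 h from 0 to 1 and 0 to 42. Medians at 2 h ran from -0.045 to 0.229 over all 79 genes, 0.0346 to 0.381 for core, -0.0482 to 0.271 for accessory subunits, -0.22 to -0.0691 for assembly factors, 0.00351 to 0.321 for complex III, -0.0311 to 0.219 for complex IV and -0.0341 to 0.211 for ATP synthase. At 12 h they ran from -0.204 to -0.0101 for core subunits, -0.182 to -0.0743 for assembly factors and -0.402 to -0.245 for ATP synthase. From 2 h to 12 h they ran from -0.468 to -0.2 over all genes of the group, -0.435 to -0.187 for core subunits, -0.124 to 0.0209 for assembly factors, -0.525 to -0.0637 for complex IV and -0.562 to -0.286 for ATP synthase. None of the 3, 11 and 27 genes called at 2 h, at 12 h and between the times changed sign under any of the 14 alternative fits. The causes were not tested. With 2 libraries a group and a median SE near 0.147, changes of the size of the complex medians are hard to call gene by gene.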
